A study of Mus musculus with 15 samples.

Results

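The *Hox* genes encode homeodomain transcription factors that lie side by side in 4 clusters, HoxA to HoxD. Members were taken from a table of RPKM values (reads scaled by the length of the gene model and by the library's reads on genes) as the genes whose symbol is Hoxa, Hoxb, Hoxc or Hoxd followed only by digits, which gave 23 of the 17454 genes in the table. HoxA held 9 of them (chromosome 6), HoxB 6 (chr11:96194316-96368254, GRCm38), HoxC 3 (chr15:102921131-103036856) and HoxD 5 (chr2:74668225-74765142). RefSeq lists 39 such genes in these clusters, and the other 16, among them *Hoxa11*, *Hoxb8*, *Hoxb9* and *Hoxd13*, were not analysed here.

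Within a cluster the genes are numbered by paralog group, and genes of low number are switched on earlier and closer to the head of the embryo than genes of high number. In blood, HoxA genes, with *Hoxa9* foremost, are active in stem and progenitor cells together with the cofactors Meis1 and Pbx and are turned down as cells differentiate. Polycomb repressive complexes keep *Hox* genes silent where they are not needed; Ezh2 is the catalytic subunit that methylates histone H3 in this system, and Bmi1 belongs to the companion complex that binds the mark.

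RNA-seq was carried out on erythro-myeloid progenitors (EMPs), sorted as LIN-negative, SCA1-negative cells with KIT, CD16/32 and CD41 on their surface, from the yolk sac (YS) of C57BL/6 embryos at E10.5, with each library made from an individual YS. Embryos of all 4 groups were Ezh2fl/fl, that is, homozygous for an *Ezh2* allele whose SET domain exons are flanked by loxP sites. Tie2-Ezh2-KO embryos (n = 5) also carried Tie2-CreTg/+, which is active from the endothelial stage onward, and Vav-Ezh2-KO embryos (n = 5) carried Vav-CreTg/+, which is active from the onset of the hematopoietic stage. Tie2-Ezh2-WT (n = 3) and Vav-Ezh2-WT (n = 2) embryos had the floxed alleles without Cre and were pooled as 5 WT libraries. Cre was present in the knockout groups alone, so an effect of Cre itself cannot be told apart from loss of Ezh2.

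Read numbers behind the RPKM values could be recovered from the steps between low values, and the libraries held 10407398 to 41025074 reads on genes. At that depth 3 reads of *Hoxb13*, the floor used below for a gene listed at 0, corresponded to 0.0557 to 0.220 RPKM in the WT libraries. The reads came from few sorted cells and 16 cycles of PCR without molecular identifiers. Floors therefore cover counting error only, and not transcripts lost before sequencing. Differences were tested with limma on log2(RPKM + 0.2) for genes above 0.2 RPKM in at least 1 library, with adjustment over all genes tested and a threshold of 0.05. Log2 changes on this scale understate the change of weakly expressed genes, and most *Hox* genes were weakly expressed.

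*Ezh2*, the targeted gene, was at 36.9, 39.5 and 30.1 RPKM in the Tie2-Ezh2-WT libraries and at 42.0 and 41.5 RPKM in the Vav-Ezh2-WT libraries. Tie2-Ezh2-KO libraries had 27.8, 26.2, 24.8, 29.5 and 26.5 RPKM, and Vav-Ezh2-KO libraries 33.7, 42.4, 37.8, 38.1 and 34.0 RPKM. All Tie2-Ezh2-KO values lay below the lowest WT value, whereas Vav-Ezh2-KO and WT values overlapped. *Ezh2* was lower in Tie2-Ezh2-KO EMPs (log2 change -0.48, SE 0.12, limma adjusted p = 0.0418) and differed by -0.02 in Vav-Ezh2-KO EMPs (SE 0.11, limma adjusted p = 0.969). A value for the whole gene does not separate the deleted exons from the rest of the transcript, so it does not check the knockout labels.

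The pair of libraries Tie2-Ezh2-WT replicate 4 and Tie2-Ezh2-KO replicate 7 stood apart through transcripts of the visceral endoderm, the outer layer of the YS. The summed RPKM of 9 visceral endoderm genes was 134 and 188 in them and 1.42 to 10.1 in the other libraries. Their most abundant gene over all libraries, *Apoa1*, reached 47.6 and 71.7 RPKM, while *Alb* was listed at 0 in all 15 libraries. The *Hox* results that passed the test are given below with and without this pair.

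**Figure D1:**
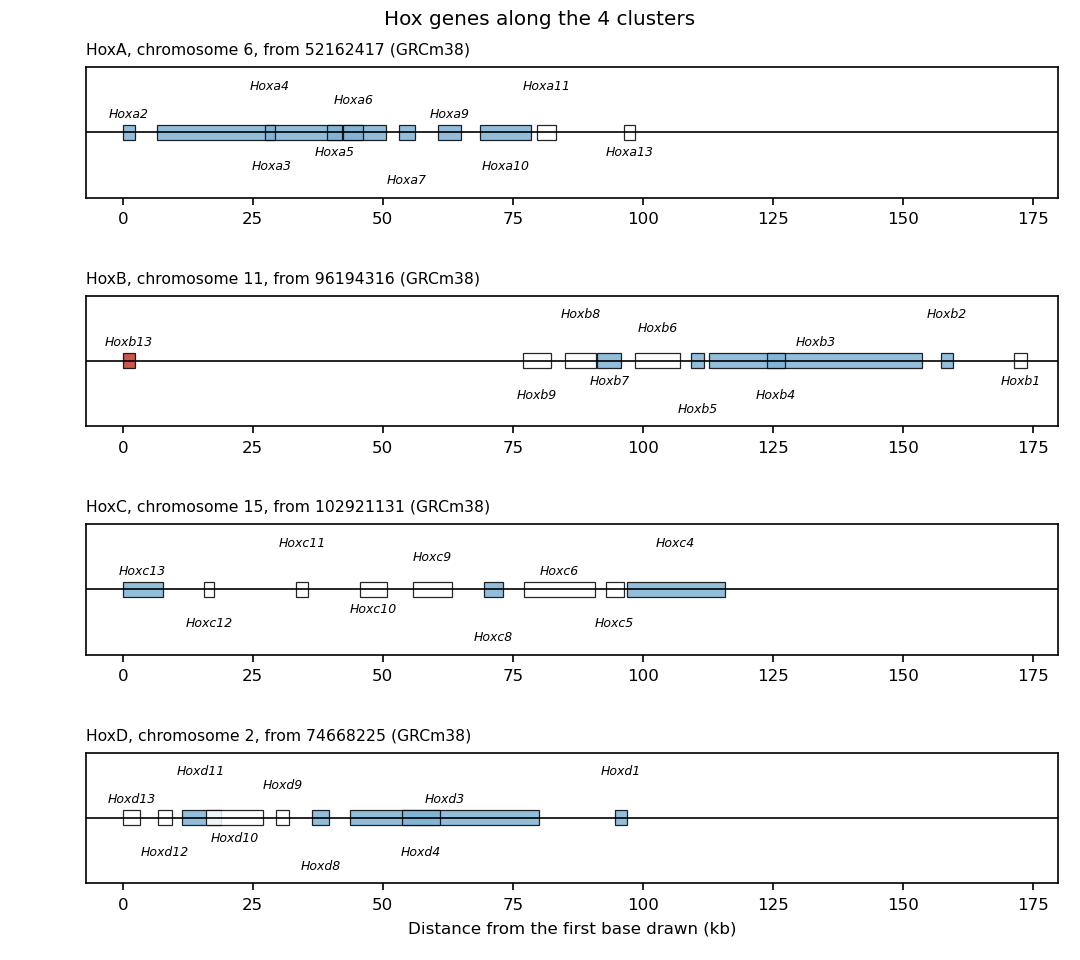
Map of RefSeq *Hox* genes along the 4 clusters, drawn to scale against the distance in kb from the first base drawn of each (GRCm38). Filled boxes are genes with values, open boxes the 16 genes not analysed here, and red marks *Hoxb13*, which passed the test in Tie2-Ezh2-KO EMPs and lies 74.7 kb from *Hoxb9*, the nearest *Hox* gene.

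*Hoxa9*, which sustains the growth of immature blood cells, was the most abundant member, with a mean of 1.65 RPKM over the 15 libraries, a level above that of 48.3% of all genes. *Hoxa7* followed at 0.743 RPKM, *Hoxb13* at 0.448, *Hoxb2* at 0.283, *Hoxa5* at 0.121 and *Hoxa10* at 0.119 RPKM. No other member had a mean above that of *Hoxa10*, and *Hoxc13* was listed at 0 throughout. *Hoxb4*, a gene used to expand blood stem cells in culture, was the one member above 0 in all 15 libraries, at 0.0212 to 0.197 RPKM.

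The number of members above 0 was 8, 8 and 8 in the Tie2-Ezh2-WT libraries and 5 and 10 in the Vav-Ezh2-WT libraries. It was 13, 12, 10, 16 and 15 in Tie2-Ezh2-KO libraries and 5, 4, 6, 8 and 6 in Vav-Ezh2-KO libraries. Tie2-Ezh2-KO libraries thus held at least as many detected members as the richest WT library, Vav-Ezh2-WT replicate 6, and more than any Vav-Ezh2-KO library. Tie2-Ezh2-KO libraries were also above the others over all genes, of which 11932 to 12288 exceeded 0.2 RPKM in them, 11544 to 11883 in WT and 11587 to 11858 in Vav-Ezh2-KO libraries. Counted in this way, the numbers of members were 2 to 6 in WT, 3 to 9 in Tie2-Ezh2-KO and 0 to 3 in Vav-Ezh2-KO libraries, and the groups overlapped.

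**Figure D2:**
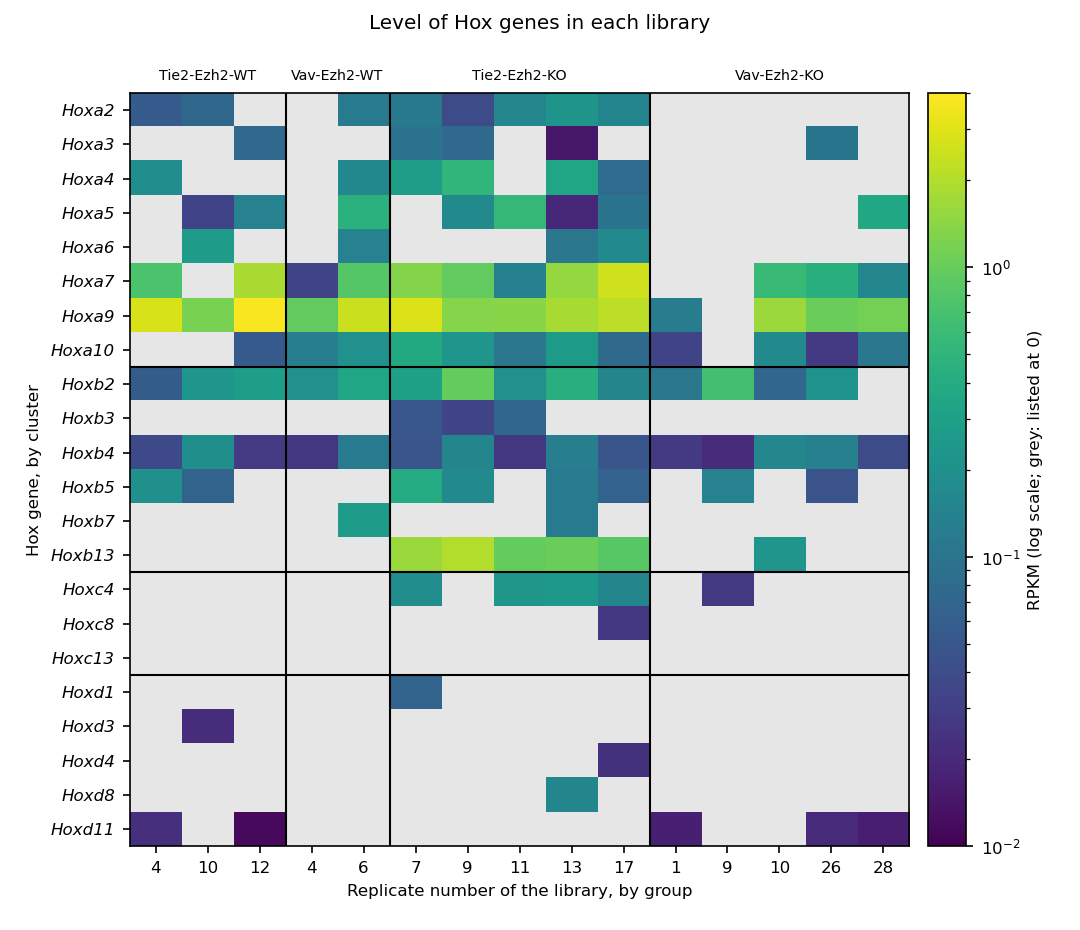
Heat map of the RPKM of *Hox* genes (rows, by cluster) in the 15 libraries (columns, replicate numbers by group), with color on a log scale and gray for genes listed at 0. *Hoxa9* and *Hoxa7* have the highest means over the 15 libraries. *Hoxb13* is above 0 in the 5 Tie2-Ezh2-KO libraries and in Vav-Ezh2-KO replicate 10, and the HoxC and HoxD rows are mostly gray.

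HoxA supplied most of the signal in WT EMPs. Its summed RPKM was 3.78, 1.58 and 5.93 in Tie2-Ezh2-WT, 1.11 and 4.38 in Vav-Ezh2-WT, 5.10, 3.33, 2.31, 4.61 and 5.38 in Tie2-Ezh2-KO, and 0.158, 0, 2.37, 1.61 and 1.76 in Vav-Ezh2-KO libraries. WT and Tie2-Ezh2-KO values overlapped, and Vav-Ezh2-KO replicates 1 and 9 lay below all other libraries. These are bulk libraries, in which fewer cells that express a gene and less RNA per cell cannot be told apart.

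The sum over HoxB was 0.299, 0.497 and 0.313 RPKM in Tie2-Ezh2-WT, 0.232 and 0.732 in Vav-Ezh2-WT, 2.43, 3.32, 1.28, 1.85 and 1.12 in Tie2-Ezh2-KO, and 0.136, 0.831, 0.461, 0.395 and 0.0407 in Vav-Ezh2-KO libraries. All Tie2-Ezh2-KO libraries were above all others. *Hoxb13* accounted for this separation, since the remaining 5 HoxB genes summed to 0.267 to 1.32 RPKM in Tie2-Ezh2-KO and 0.232 to 0.732 RPKM in WT libraries.

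HoxC was silent at this depth in the 5 WT libraries and gave 0.190, 0, 0.238, 0.244 and 0.183 RPKM in Tie2-Ezh2-KO libraries, most of it from *Hoxc4*. In Vav-Ezh2-KO libraries HoxC was listed at 0 in replicates 1, 10, 26 and 28 and at 0.0274 RPKM in replicate 9. HoxD reached at most 0.157 RPKM in any library and showed no group that stood out.

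By position along the clusters, the posterior genes (paralog groups 9 to 13, which pattern the hind part of the embryo) had the highest sums, with means of 2.33 ± 1.18 RPKM in WT libraries, 3.44 ± 0.914 in Tie2-Ezh2-KO libraries and 0.907 ± 0.828 in those of Vav-Ezh2-KO (SD, n = 5 each). Central genes (groups 4 to 8) averaged 1.16 ± 0.861, 2.24 ± 0.881 and 0.428 ± 0.304 RPKM, and anterior genes (groups 1 to 3) 0.294 ± 0.134, 0.692 ± 0.333 and 0.233 ± 0.269 RPKM, in the same order of groups (SD, n = 5 each). Each position had its highest mean in Tie2-Ezh2-KO and its lowest in Vav-Ezh2-KO, and these differences between sums were not tested. For the posterior genes the place of Tie2-Ezh2-KO above WT rests on *Hoxb13*, whose mean of 1.30 RPKM in Tie2-Ezh2-KO is more than the difference from WT. *Hoxa9* made up 59.3% of all *Hox* RPKM in WT, 30.3% in Tie2-Ezh2-KO and 49.9% in Vav-Ezh2-KO libraries.

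Tie2-Ezh2-KO EMPs were compared with WT EMPs to ask what changes when Ezh2 is lost from the endothelial stage. *Hoxb13*, the most posterior gene of HoxB, which is known from the hindgut, the tail and the prostate, was listed at 0 in all 5 WT libraries and at 1.63, 1.99, 0.977, 1.05 and 0.852 RPKM in the Tie2-Ezh2-KO libraries. These values rested on 34, 40, 19, 37 and 18 reads. Every Tie2-Ezh2-KO library was therefore above every WT library, and all were also above the highest floor among WT libraries, 0.220 RPKM.

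The mean in Tie2-Ezh2-KO EMPs, 1.30 ± 0.488 RPKM (SD, n = 5), was at least 9.45-fold higher than in WT EMPs, taking 3 reads per library as the WT floor (mean 0.138 RPKM). That bound covers counting error alone. *Hoxb13* rose by a log2 change of 2.85 (SE 0.28, limma adjusted p = 8.88e-05) and was higher in 5 of 5 Tie2-Ezh2-KO libraries. Without the pair of libraries with visceral endoderm transcripts the log2 change was 2.76 (limma adjusted p = 0.00138), and over the 21 alternatives the adjusted p ranged from 9.09e-06 to 0.00138. The gene (chr11:96194316-96196610, GRCm38) overlaps no other RefSeq gene.

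Of the 23 members, 13 passed the filter on low values in this comparison, and of these 1 was called higher and 0 lower. Over all 14154 genes tested, 2.42% were called higher and 0.304% lower. *Hoxb13* was also the single member with all 5 knockout libraries above all 5 WT libraries, against 3.29% of all genes, and 0 members had all knockout libraries below, against 0.714%. At an unadjusted p under 0.05, limma put 2 members higher (*Hoxb13* and *Hoxc4*) and 0 lower, and limma-voom on the recovered reads called 1 member after adjustment and 3 before it. Over all genes the unadjusted limma counts were 1163 higher and 389 lower, and limma-voom called 337 after adjustment and 1608 before it.

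*Hoxc4*, the most anterior gene of HoxC with a value, was listed at 0 in the 5 WT libraries and at 0.190, 0, 0.238, 0.244 and 0.157 RPKM in Tie2-Ezh2-KO libraries (6, 0, 7, 13 and 5 reads). *Hoxc4* overlaps the RefSeq gene *Gm30528*, and the kit did not mark strand, so its reads may be shared with that gene. Tie2-Ezh2-KO replicate 9 shared the *Hoxc4* value of the WT libraries and the other 4 were above them. The mean, 0.166 ± 0.0995 RPKM (SD, n = 5), was at least 1.82-fold higher than the WT floor of 3 reads per library, which again covers counting error alone. With a log2 change of 0.82 (SE 0.27, limma adjusted p = 0.158) it did not pass the test; without replicate 9 (1.02, limma adjusted p = 0.0390) and with all 15 libraries in one fit (limma adjusted p = 0.0470) it did, and over the 20 alternatives that tested it the adjusted p ranged from 0.0390 to 0.517.

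*Hoxb3*, an anterior gene of HoxB, was the third member listed at 0 in the 5 WT libraries and above 0 in several knockout libraries, with 0.0506, 0.0352, 0.0725, 0 and 0 RPKM in Tie2-Ezh2-KO EMPs. These were 3, 2 and 4 reads, close to the floor, and *Hoxb3* spans *Hoxb4*, so a read in their shared interval has an uncertain origin. It did not reach the filter and was not tested.

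**Figure D3:**
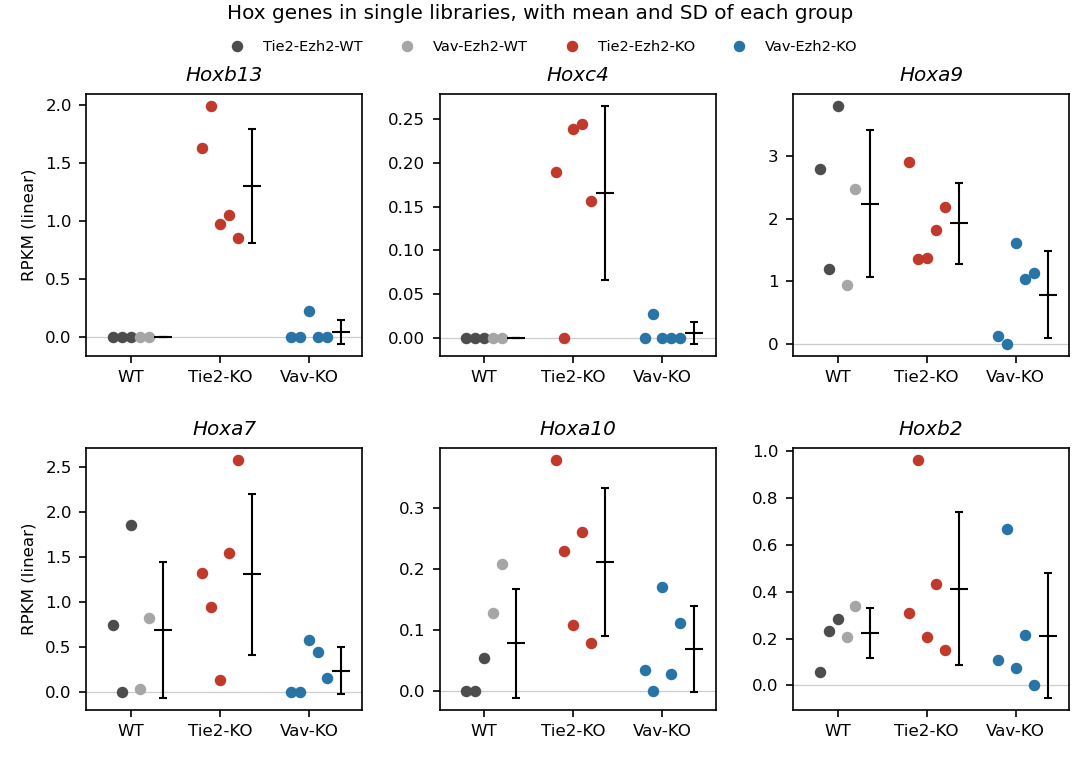
RPKM (linear axis) of *Hoxb13*, *Hoxc4*, *Hoxa9*, *Hoxa7*, *Hoxa10* and *Hoxb2* in each library, as points colored by group, with a bar and whiskers for mean and SD (n = 5 for pooled WT and for each knockout). *Hoxb13* separates Tie2-Ezh2-KO from WT libraries, at 0.852 to 1.99 RPKM against 0, while the other genes overlap between groups.

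The abundant HoxA genes did not pass the test in Tie2-Ezh2-KO EMPs. *Hoxa9* was at 2.79, 1.20 and 3.81 RPKM in Tie2-Ezh2-WT, 0.946 and 2.47 in Vav-Ezh2-WT, and 2.90, 1.35, 1.37, 1.82 and 2.19 in Tie2-Ezh2-KO libraries. All Tie2-Ezh2-KO values lay inside the WT range, and the log2 change was -0.10 (SE 0.36, limma adjusted p = 0.973). Without Tie2-Ezh2-WT replicate 4, Tie2-Ezh2-WT replicate 12 or Tie2-Ezh2-KO replicate 9 its sign turned (0.013, 0.12 and 0.0018).

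*Hoxa7*, its neighbor, had 0.739, 0 and 1.85 RPKM in Tie2-Ezh2-WT, 0.0344 and 0.822 in Vav-Ezh2-WT, and 1.32, 0.939, 0.138, 1.55 and 2.58 in Tie2-Ezh2-KO libraries. Tie2-Ezh2-KO replicate 17 alone exceeded the WT range (log2 change 0.99, SE 0.66, limma adjusted p = 0.728). *Hoxa10*, which like *Hoxa9* is a posterior gene of immature myeloid cells, was at 0, 0 and 0.0543 RPKM in Tie2-Ezh2-WT, 0.128 and 0.207 in Vav-Ezh2-WT, and 0.379, 0.229, 0.107, 0.261 and 0.0791 in Tie2-Ezh2-KO libraries. It was above the WT range in 3 of 5 Tie2-Ezh2-KO libraries (log2 change 0.57, SE 0.30, limma adjusted p = 0.572).

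*Hoxb2*, an anterior gene of HoxB, was at 0.0590, 0.233 and 0.284 RPKM in Tie2-Ezh2-WT, 0.206 and 0.338 in Vav-Ezh2-WT, and 0.308, 0.964, 0.207, 0.435 and 0.153 in Tie2-Ezh2-KO libraries. *Hoxa5* was at 0, 0.0337 and 0.143 RPKM in Tie2-Ezh2-WT, 0 and 0.454 in Vav-Ezh2-WT, and 0, 0.174, 0.539, 0.0199 and 0.0993 in Tie2-Ezh2-KO libraries. Both overlapped between groups, with log2 changes of 0.44 (limma adjusted p = 0.823) and 0.16 (limma adjusted p = 0.960); the sign for *Hoxa5* turned when replicate 11 of the knockout was left out (-0.14) and with quantile normalization (-0.051). *Hoxa5* lies within the span of *Hoxa3*, and the kit did not mark strand, so its reads may be shared with that gene. *Hoxb2* overlaps the RefSeq gene *Hoxb3os* and *Hoxa10* overlaps *Gm52902*, so their reads may likewise be shared.

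Among the members tested with lower levels, *Hoxa2*, *Hoxa4* and *Hoxb5* had log2 changes of 0.43, 0.65 and 0.43, and *Hoxa6* and *Hoxb7* of -0.10 and -0.12, with limma adjusted p from 0.635 to 0.972. The 13 tested members had a median log2 change of 0.43, against 0.01 over all genes. The tested members at 0 in WT, *Hoxb13* and *Hoxc4* among them, stay on the same side of the median when set at their bounds. That setting therefore could not move it. A member had to exceed 0.2 RPKM in some library to be tested, so the median does not stand for the 10 members that were not. *Hoxa2*, *Hoxa4*, *Hoxb13* and *Hoxc4* were among those that exceeded it in Tie2-Ezh2-KO but in no WT library, which favors a median above 0 here. All of these but *Hoxb13* also stayed under it in Vav-Ezh2-KO libraries, which favors a median above 0 in the difference between knockouts. Nothing is read from the median here.

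Vav-Ezh2-KO EMPs were compared with the same 5 WT libraries, which both comparisons therefore share, to ask what changes when Ezh2 is lost at the hematopoietic stage. *Hoxb13* was listed at 0 in Vav-Ezh2-KO replicates 1, 9, 26 and 28 and at 0.226 RPKM (5 reads) in replicate 10, and *Hoxc4* was listed at 0 except for 1 read in replicate 9. *Hoxa9* was at 0.125, 0, 1.62, 1.03 and 1.13 RPKM, and *Hoxa7* at 0, 0, 0.578, 0.445 and 0.161 RPKM. Replicates 1 and 9 were below every WT library for *Hoxa9*, with 8 and 0 reads among 28243857 and 18418304 reads on genes, while the other 3 lay within the WT range.

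*Hoxa9* had a log2 change of -1.61 in Vav-Ezh2-KO EMPs (SE 0.57, limma adjusted p = 0.544), which did not pass the test. Its estimate was below 0 in all 21 alternatives, from -2.87 to -0.88, with adjusted p from 0.372 to 0.862. *Hoxa7* had -0.73 (SE 0.61, limma adjusted p = 0.795) and *Hoxb13* 0.22 (SE 0.27, limma adjusted p = 0.861). *Hoxa10*, at 0.0338, 0, 0.170, 0.0277 and 0.111 RPKM, and *Hoxb2*, at 0.109, 0.667, 0.0728, 0.213 and 0 RPKM, overlapped the WT libraries. Their log2 changes, -0.03 and -0.20, turned in sign without single libraries, that of *Hoxa10* without Vav-Ezh2-WT replicate 4 or Vav-Ezh2-KO replicates 1, 9 or 26 (0.044, 0.010, 0.066 and 0.020) and that of *Hoxb2* without Vav-Ezh2-KO replicate 28 (0.017).

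Further members had no reads in Vav-Ezh2-KO libraries. *Hoxa2*, *Hoxa4* and *Hoxa6* were listed at 0 in all 5, and *Hoxa5* at 0 in 4 and at 0.353 RPKM in replicate 28 (log2 change -0.25, limma adjusted p = 0.895; 0.043 without Vav-Ezh2-WT replicate 6). In WT libraries these genes were low as well, at most 0.454 RPKM (*Hoxa5*, 17 reads in Vav-Ezh2-WT replicate 6), and each was listed at 0 in at least 2 of the 5.

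In all, 9 members were tested in Vav-Ezh2-KO EMPs, and limma called 0 higher and 0 lower after adjustment, with 0 higher and 1 lower, *Hoxa9*, at an unadjusted p under 0.05. Limma-voom on recovered reads called 0 members after adjustment and 1 before it, against 0 and 1197 of all genes. Over all 13646 genes tested, limma called 1 higher (0.00733%), *Sva*, and 0 lower (0.0%), at 546 higher and 536 lower before adjustment, so the members' count of 0 was near the background. No member had all Vav-Ezh2-KO libraries above or below all WT libraries, against 0.601% and 0.806% of all genes. The median log2 change was -0.25 for the 9 members and -0.02 over all genes. *Hoxb13* stays above the members' median when set at its bound, so that setting could not move it. Of these 9, *Hoxa6*, *Hoxa10*, *Hoxb5* and *Hoxb7* exceeded 0.2 RPKM in WT libraries alone, so the filter itself favors a median below 0 and nothing is read from it.

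Whether the knockouts differed in their effects, each taken against its own WT group, was tested over all 15 libraries. *Hoxb13* had a difference of 2.63 on the log2 scale (SE 0.49, limma adjusted p = 0.0431) and was higher in 5 of 5 Tie2-Ezh2-KO libraries than in any Vav-Ezh2-KO library. This call was close to the threshold: the adjusted p was 0.117 without the pair of libraries with visceral endoderm transcripts, and it was under 0.05 in 10 of 25 alternatives, over which it ranged from 3.73e-04 to 0.269. Any of the 5 WT libraries (0.0763 to 0.221), Tie2-Ezh2-KO replicate 7 (0.0709), or replicates 1, 9, 26 and 28 of Vav-Ezh2-KO (0.0759, 0.0623, 0.0682 and 0.0766), each left out alone, took it past 0.05. In a direct contrast of the knockout groups, which does not use the WT libraries, *Hoxb13* had the same difference with an adjusted p of 3.73e-04.

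Of 13 members tested for this difference, 1 was called higher and 0 lower, against 0.16% and 0.0208% (*Sva*, *Ly96* and *Gm15915*) of 14394 genes. At an unadjusted p under 0.05, limma put 2 members higher, the other being *Hoxa10* (difference 1.36, SE 0.45, limma adjusted p = 0.434), and 0 lower. The WT groups contribute to the *Hoxa10* difference, with means of 0.0181 RPKM in Tie2-Ezh2-WT and 0.168 in Vav-Ezh2-WT. The means were 0.211 RPKM in Tie2-Ezh2-KO and 0.0684 in Vav-Ezh2-KO. Limma-voom called 0 members after adjustment and 5 before it. Over all genes the unadjusted limma counts were 686 higher and 256 lower, and limma-voom called 2 after adjustment and 1044 before it. *Hoxa9* and *Hoxa7* had differences of 0.96 (SE 0.93) and 1.15 (SE 1.14), about as large as their errors. In the direct contrast, the levels in Tie2-Ezh2-KO EMPs were above those in Vav-Ezh2-KO EMPs by 1.51 (SE 0.54) for *Hoxa9* and by 1.72 (SE 0.54) for *Hoxa7* on the log2 scale, which did not pass the test (limma adjusted p = 0.150 and 0.0996, the lowest over the 25 alternatives of each gene, whose highest was close to 1). All 13 estimates of the difference in effects were above 0, as were 8236 of 14394 over all genes. The 13 members had a median of 0.93, also 0.93 without the 3 members at 0 in WT, against 0.06 over all genes. *Hoxa2*, *Hoxa4* and *Hoxc4* were tested only because of their Tie2-Ezh2-KO values, so nothing is read from this count or median. The median over all genes was -0.07 with libraries scaled to a common median, a shift of over 0.1.

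Hox proteins bind DNA together with cofactors of the Meis, Pbx and Pknox families. *Meis1*, the partner of Hoxa9 in blood progenitors, was at 20.9 to 39.1 RPKM in the 15 libraries, far above any *Hox* gene, while *Pknox2* was listed at 0. Of 8 cofactor genes tested in Tie2-Ezh2-KO EMPs limma called 0 after adjustment and 1 higher, 0 lower at an unadjusted p under 0.05; this was *Meis3* (log2 change 1.25, SE 0.40, adjusted p = 0.146). In Vav-Ezh2-KO EMPs limma called 0 of 7, and 0 at an unadjusted p under 0.05. The median log2 change of the cofactors was -0.05 in Tie2-Ezh2-KO and 0.21 in Vav-Ezh2-KO EMPs, against 0.01 and -0.02 over all genes.

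Upstream of the clusters, *Cdx1* and *Cdx2*, which switch on *Hox* genes along the body axis, were above 0 in 1 library each, at 0.0710 and 0.0448 RPKM, and *Cdx4* was not analysed here. The gene for Menin, which brings MLL methyltransferases to HoxA, was at 10.1 to 36.4 RPKM. Of 6 activator genes tested, limma called 0 in either knockout; at an unadjusted p under 0.05 the counts were 0 in Tie2-Ezh2-KO and 1 lower in Vav-Ezh2-KO EMPs, and the medians -0.17 and -0.25.

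Among 21 polycomb genes, all of which were tested, 1 was called higher and 1 lower in Tie2-Ezh2-KO EMPs. The lower one was *Ezh2*, and the higher one was *Bmi1*, at 38.2, 30.5, 48.5, 47.5 and 36.4 RPKM against 10.3 to 15.6 RPKM in WT libraries. *Bmi1* rose by 1.75 on the log2 scale (SE 0.16, limma adjusted p = 5.54e-05), without overlap between the groups. In Vav-Ezh2-KO EMPs limma called 0 of 21, with 0 higher and 2 lower at an unadjusted p under 0.05. The median log2 change of the polycomb genes was -0.11 in Tie2-Ezh2-KO and -0.08 in Vav-Ezh2-KO EMPs.

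Non-coding genes inside the clusters gave few values, with 4 of 12 listed genes in the table and 2 tested, of which limma called 0 in either knockout (0 also at an unadjusted p under 0.05). *Mira* (chr6:52214491-52215288, GRCm38), a non-coding RNA gene between *Hoxa6* and *Hoxa7*, was at 2.05, 0 and 1.87 RPKM in Tie2-Ezh2-WT, 0.337 and 0.943 in Vav-Ezh2-WT, 1.10, 0.575, 1.10, 2.06 and 3.04 in Tie2-Ezh2-KO, and 0, 0, 0.819, 0.436 and 0.306 in Vav-Ezh2-KO libraries. It was listed at 0 in the same 3 libraries as *Hoxa7*, namely Tie2-Ezh2-WT replicate 10 and Vav-Ezh2-KO replicates 1 and 9. Both genes were highest in Tie2-Ezh2-KO replicate 17.

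Genes that flank the clusters were measured as neighbors that are not *Hox* genes. Of 24 flanking genes tested in Tie2-Ezh2-KO EMPs limma called 0, with 1 higher and 0 lower at an unadjusted p under 0.05, and their median log2 change was 0.01, the same as over all genes. The 1 gene was *Jazf1* (log2 change 1.31, SE 0.38, adjusted p = 0.0993). In Vav-Ezh2-KO EMPs limma called 0 of 23, with 3 higher and 0 lower at an unadjusted p under 0.05. *Jazf1* was among these 3 as well (log2 change 0.94, SE 0.31, limma adjusted p = 0.542), with *Atp5g2* and *Atp5g3*. *Skap2*, next to HoxA, was at 65.7 to 94.8 RPKM in all 15 libraries, and *Nfe2*, an erythroid and platelet factor next to HoxC, at 191 to 256 RPKM, whereas *Hoxc4*, at the end of HoxC, did not exceed 0.244 RPKM.

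Markers of the sorted cells and of other YS cells were read beside the *Hox* genes. The 8 EMP genes summed to 413 to 600 RPKM in all libraries, with *Gfi1b* as the most abundant, and limma called 0 of 8 in either knockout (in Tie2-Ezh2-KO 1 higher and 2 lower, in Vav-Ezh2-KO 1 higher and 0 lower at an unadjusted p under 0.05). Of 7 endothelial genes with values, *Cdh5* and *Cldn5* stayed below 1 RPKM in every library, and limma called 0 in either knockout (1 higher and 1 lower, and 0, at an unadjusted p under 0.05); the sum, led by *Pecam1*, was 24.9 to 54.9 RPKM. The 10 mesenchymal genes, from cells in which *Hox* genes are widely active, summed to 1.43 to 3.54 RPKM, and 7 of them, *Pdgfra*, *Col1a1* and *Col3a1* included, stayed below 1 RPKM in every library. Limma called 0 of the 5 that could be tested in either knockout, with 1 higher in Tie2-Ezh2-KO and 0 in Vav-Ezh2-KO EMPs at an unadjusted p under 0.05.

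Primitive erythroid globins are made by the first red cells of the YS, and 2 of 3 were higher in Tie2-Ezh2-KO EMPs. The 3 genes summed to 140, 126, 142, 65.2 and 118 RPKM in WT, 309, 585, 855, 192 and 284 in Tie2-Ezh2-KO, and 85.0, 121, 59.9, 155 and 152 in Vav-Ezh2-KO libraries, with *Hbb-bh1* the most abundant. Tie2-Ezh2-KO libraries were above all others. In Tie2-Ezh2-KO EMPs limma called *Hba-x* (log2 change 6.33, adjusted p = 8.88e-05) and *Hbb-bh1* (1.18, adjusted p = 0.0441) higher, but not *Hbb-y* (0.64, adjusted p = 0.779), and *Hba-x* also in the difference between the knockouts (6.41, adjusted p = 0.0457). *Hoxb13* was highest in replicate 9 and the globin sum in replicate 11; their part in the *Hoxb13* result was not tested. In Vav-Ezh2-KO EMPs limma called 0 of 3, and 0 at an unadjusted p under 0.05.

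Of 6 visceral endoderm genes tested, 1 was called higher in Tie2-Ezh2-KO EMPs, *Amn* (log2 change 3.01, limma adjusted p = 0.00155), which was at 1.52 to 4.66 RPKM there and at 0 to 0.798 RPKM in WT libraries. *Hoxb13* was at 1.63 RPKM in Tie2-Ezh2-KO replicate 7 and at 0 in Tie2-Ezh2-WT replicate 4, the pair with 188 and 134 RPKM of visceral endoderm transcripts. In Vav-Ezh2-KO EMPs limma called 0 of 5 visceral endoderm genes, and 0 at an unadjusted p under 0.05. Macrophage genes summed to 1.41 to 11.5 RPKM, led by *Csf1r*, with *C1qa* listed at 0 throughout, and megakaryocyte genes, led by *Pf4*, to 66.6 to 266 RPKM. Limma called 0 of 6 and 0 of 5 of these in either knockout, with 1 macrophage gene lower in Tie2-Ezh2-KO and 1 megakaryocyte gene lower in Vav-Ezh2-KO EMPs at an unadjusted p under 0.05.

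Promoter sequences from RefSeq (GRCm38.p6) matched 14 of the 23 members, with *Hoxb13* not among them. Polycomb complexes act at promoters rich in CG dinucleotides, and the 250 bases before the start of the 14 genes held 2 to 28 CG dinucleotides, with a median of 7.5, against a median of 6 over 27025 promoters. *Hoxa5* had the most, 28, a number that 7.26% of all promoters reach, and *Hoxa9*, the most abundant member, had 3, which 70.4% reach. *Hoxa7* (chr6:52218574-52218823, minus strand) and *Hoxa10* (chr6:52240855-52241104, minus strand) are shown as the described members whose 250 bases overlap no RefSeq gene; each holds 7, as 46.6% of promoters do or exceed, and capitals mark each CG.
Hoxa7: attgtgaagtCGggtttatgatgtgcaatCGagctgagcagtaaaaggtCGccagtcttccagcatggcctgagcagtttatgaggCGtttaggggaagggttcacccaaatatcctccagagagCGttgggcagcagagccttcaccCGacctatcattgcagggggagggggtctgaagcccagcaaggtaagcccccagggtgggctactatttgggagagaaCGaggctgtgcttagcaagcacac
Hoxa10: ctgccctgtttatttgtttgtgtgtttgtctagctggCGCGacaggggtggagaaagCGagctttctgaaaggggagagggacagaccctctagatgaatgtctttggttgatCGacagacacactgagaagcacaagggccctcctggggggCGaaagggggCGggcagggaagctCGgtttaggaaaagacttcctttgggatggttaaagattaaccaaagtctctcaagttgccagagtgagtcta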

How the data were processed

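RNA-seq libraries from sorted E10.5 YS EMPs were made with SMARTer and Nextera XT kits and sequenced as 75 bp single-end reads, without strand. Per the submitters' processing notes and the study's methods, reads were aligned with TopHat2 (2.0.13) to GRCm38 and counted with featureCounts on RefSeq genes, and the authors deposited RPKM values for 15 libraries. All values used here come from these deposited RPKM values. Reads per gene were recovered from the RPKM steps for all 16877 genes above 0, and at least 99.998% of each library's total came back. Groups were taken from the labels.

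Limma 3.58.1 (R 4.3.3, lmFit, eBayes with trend) was fitted to log2(RPKM + 0.2) over whole tables, with Benjamini-Hochberg adjustment, after a check on simulated data. That check planted changes only in genes with a mean log2(RPKM + 0.2) above 1. Most *Hox* genes do not reach this level, so the check does not cover them. The study tested reads with a count model; a count test was not used as the main test because the unit is RPKM. The 3 independent experiments of the study are not assigned to libraries, so no batch term could be fitted. Values per library are given for *Hox* genes past the threshold, for the 6 with the highest mean RPKM and for those at 0 in WT but above 0 in 3 or more libraries of a knockout, which makes 8. Other genes named singly were chosen after their values were seen. The members and lists were chosen with earlier results of these data known. Alternatives were pseudocounts of 0.05 and 1, other filters (none; 3 libraries), eBayes without trend, quantile and median scaling, limma-voom on recovered reads, other WT libraries, a single fit, and leaving out libraries. Of the *Hox* genes with values, 1 is counted in the totals and not reported here.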

Additional observations from a re-analysis of the deposited data

Results flagged for a closer look

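In each group of 5 libraries, the highest and the lowest value of the described *Hox* genes, of the cluster sums and of 2 marker sums were set against the other 4 by Dixon's gap test, 42 groups of values in all. Chance picks out about 1 in 20 groups where values do not tie, and 7 values stood apart. That rate does not hold for 4 of the 7, in which the other 4 libraries were all at 0, so that any single read stands apart.

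In Vav-Ezh2-KO EMPs, *Hoxa5* was at 0.353 RPKM in replicate 28, *Hoxb13* at 0.226 RPKM in replicate 10 and *Hoxc4* at 0.0274 RPKM in replicate 9, each the highest of its group and each in a gene listed at 0 in the other 4 libraries. The *Hoxc4* value is a single read and gives the HoxC sum of that library, also 0.0274 RPKM, so that it is counted under both. In Tie2-Ezh2-KO EMPs the HoxC sum was 0 in replicate 9, the lowest of the group, and 0.183 to 0.244 RPKM in the other 4 libraries.

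The visceral endoderm genes summed to 134 RPKM in Tie2-Ezh2-WT replicate 4 and to 188 RPKM in Tie2-Ezh2-KO replicate 7, the highest of the WT and of the Tie2-Ezh2-KO libraries. *Hoxb13* differed between the effects of the knockouts by 2.63 on the log2 scale, and that test, unlike the gap test, compared groups.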

How the results depend on the processing

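The call of *Hoxb13* in Tie2-Ezh2-KO EMPs was kept in all 21 alternatives, with log2 changes from 1.18 to 5.94. No *Hox* gene was called lower in any of the 3 comparisons under any alternative run. No paired analysis was possible because the labels give no pairing of libraries, and replicate numbers do not define one. The alternative without the libraries with visceral endoderm transcripts was chosen after seeing the data.

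In Tie2-Ezh2-KO EMPs, 343 genes were called higher and 43 lower. With the Tie2-Ezh2-WT libraries alone as controls the counts were 179 and 8, without the libraries with visceral endoderm transcripts 196 and 21, and the lower count was 25 without a filter and 26 with limma-voom; leaving out single libraries gave 17 to 49 lower genes, with 22, 17, 28, 26 and 27 without Tie2-Ezh2-WT replicate 10, Vav-Ezh2-WT replicates 4 and 6, and Tie2-Ezh2-KO replicates 7 and 11. Called *Hox* genes numbered 2 rather than 1 with all 15 libraries in one fit, through *Hoxc4*, and 1 to 2 when single libraries were left out (2 without Tie2-Ezh2-KO replicate 9). The estimate for *Hoxa5* was -0.051 under quantile normalization and -0.14 to 0.45 without single libraries, and that for *Hoxa9* -0.33 to 0.12.

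In Vav-Ezh2-KO EMPs, 1 gene was called higher and 0 lower; the counts were 0 higher with limma-voom, 2 higher with the Vav-Ezh2-WT libraries alone, 1 lower with a common median, and 1 to 2 higher (2 without Tie2-Ezh2-WT replicate 12) and 0 to 1 lower (1 without Tie2-Ezh2-WT replicate 10 or Vav-Ezh2-WT replicate 4) without single libraries. Without single libraries the log2 changes of *Hoxa5*, *Hoxa10* and *Hoxb2*, none of them called, ran from -0.54 to 0.043, from -0.16 to 0.066 and from -0.51 to 0.017.

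For the difference between the knockouts, 23 genes were called higher and 3 lower. The higher count was 14 without a filter, 9 with quantile normalization, 8 with a common median, 2 with limma-voom, 7 without the libraries with visceral endoderm transcripts and 372 in the direct contrast of the knockouts; the lower count was 0 with limma-voom and 123 in the direct contrast. Single libraries left out gave 7 to 29 higher, at most 15 without any of the 5 WT libraries, Tie2-Ezh2-KO replicates 7, 11 and 17 or Vav-Ezh2-KO replicates 1, 10 and 28, and 1 to 3 lower, with 1 without Tie2-Ezh2-WT replicate 12, either Vav-Ezh2-WT library or Vav-Ezh2-KO replicate 28. *Hoxb13*, the 1 *Hox* gene called, was not called (0 *Hox* genes) with a pseudocount of 0.05 (adjusted p = 0.0901), quantile normalization (0.117), a common median (0.0721), limma-voom (0.269) or without the libraries with visceral endoderm transcripts (0.117), nor without any of the 5 WT libraries, Tie2-Ezh2-KO replicate 7 or Vav-Ezh2-KO replicates 1, 9, 26 and 28, so that single libraries left out gave 0 to 1. A Vav-Ezh2-WT library left out leaves 1 in its group, which is then assumed to vary like the other groups. The cause of these changes was not tested. Many of the weakest members rest on fewer than 10 reads in a library. Whether depth limits their detection was not tested.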
